A study of Mus musculus with 6 samples.

Results

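The core genes of planar cell polarity examined here were Vangl1, Vangl2, Celsr1, Celsr2, Prickle1, Prickle2, Prickle3, Fzd7, Ptk7 and Ror2, 10 of the 54115 genes to which reads could be assigned. They were taken by gene symbol, with no cut-off on their values, from a list drawn up with earlier results of these data known. RNA-sequencing was performed on satellite cells, which are muscle stem cells, freshly sorted from uninjured hindlimb muscles of C57BL/6J mice aged 6 to 8 weeks, with 3 samples from Pax7WT littermate controls and 3 from Pax7KR mice. Pax7KR mice are homozygous for a CRISPR/Cas9 germline change that puts arginine, which cannot be acetylated, in place of an acetylated lysine of PAX7, the transcription factor that defines satellite cells. The change is therefore carried by every cell of the animal and not only by the sorted cells. Sorting kept α7-INTEGRIN+ CD34+ cells and removed cells with CD31, CD11b, SCA-1 or CD45. Sex, and the number of mice behind each sample, were not given in the sources used here, and the p-values measure the spread between these 6 samples. In bulk RNA, fewer expressing cells and less RNA per cell cannot be told apart.

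Planar cell polarity orients cells within the plane of a tissue. At a cell boundary, FZD receptors and Dishevelled gather on one side and VANGL and PRICKLE on the other, and CELSR, an atypical cadherin, joins the sides across the boundary. PTK7 and ROR2 are transmembrane co-receptors that tie the pathway to Wnt ligands. In muscle, signalling from WNT7A through FZD7 and VANGL2 is known to favour the symmetric expansion of satellite stem cells, which makes the pathway of interest in a mouse whose PAX7 is altered.

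The 10 core genes were all detected in these cells, and none of them passed the test for a difference between Pax7WT and Pax7KR satellite cells. Vangl1 stood lowest relative to its control level, at 0.74 times the Pax7WT level (95% confidence interval 0.599 to 0.914). The other 9 genes had estimates between 0.85 and 1.15 times the control level, and each of their confidence intervals included 1. Of the 10 genes, 7 had a lower and 3 a higher estimate in Pax7KR, beside 51% of all 17152 tested genes with a lower one. The median log2 fold change of the core genes was −0.12 and that of all tested genes was −0.004.

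The libraries held between 17822367 and 27908054 estimated reads. Pax7 itself had 1666, 1506 and 1480 CPM (counts-per-million, scaled by TMM library sizes) in the Pax7WT libraries and 1410, 1460 and 1637 in the Pax7KR libraries, so that the groups overlapped (log2 fold change −0.05 ± 0.08 SE). The mutation alters the protein, and the level of Pax7 transcript therefore does not check the genotype labels. The 9 satellite cell markers summed to between 6785 and 7254 CPM in Pax7WT and between 7056 and 7325 in Pax7KR. Among markers of other cells, the summed levels were 271 to 348 against 305 to 387 CPM for endothelial cells, 14.8 to 16.7 against 12.4 to 16.8 for immune cells and 2505 to 2860 against 2332 to 2567 for smooth muscle cells and pericytes. Those of fibro-adipogenic progenitors and tenocytes were 1343 to 1471 against 1389 to 1448, those of Schwann cells 108 to 129.9 against 83.9 to 109 and those of myofibres 50.1 to 56.4 against 41.3 to 57.2. The summed early response genes, which rise during cell isolation, were 25784 to 42217 against 32227 to 36309 CPM, with Pax7WT replicate 2 the lowest. Cd3e alone among these markers had no read in any library. All of these ranges overlapped between the genotypes, and all 8 smooth muscle and pericyte markers had lower estimates in Pax7KR (median log2 fold change −0.14), while 7 of 8 endothelial markers had higher ones (median 0.31). The part of other cells in the values of the core genes was not tested.

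RefSeq promoter windows on GRCm38.p6, which run from 250 bases before to 50 bases after a start site, were found for 8 of the 10 core genes, 12 windows in all, with no entry for Vangl1 or Celsr1. They are described here because PAX7 binds DNA through a homeodomain, for which TAAT is the core motif and TAAT followed after 2 bases by ATTA a palindromic pair, and through a paired domain. The study also examined PAX7 binding at sites many kilobases from a start, which these windows do not cover. The 250 bases before the start of Prickle2-204, the transcript that held most Prickle2 reads, lie at chr6:92567367-92567616 on the minus strand and contain the only palindromic pair among the 12 windows. They are printed with those before the upstream Prickle2-201 start, at chr6:92706185-92706434 on the minus strand, and those before the Vangl2 start, at chr1:172027296-172027545 on the minus strand. All are written 5′ to 3′ on the strand of the gene, and capitals mark TAAT on either strand.
Prickle2-204: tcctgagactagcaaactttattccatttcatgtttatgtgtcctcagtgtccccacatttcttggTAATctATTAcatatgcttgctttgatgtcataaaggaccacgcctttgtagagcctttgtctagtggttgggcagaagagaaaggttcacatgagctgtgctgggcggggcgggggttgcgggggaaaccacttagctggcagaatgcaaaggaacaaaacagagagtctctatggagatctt
Prickle2-201: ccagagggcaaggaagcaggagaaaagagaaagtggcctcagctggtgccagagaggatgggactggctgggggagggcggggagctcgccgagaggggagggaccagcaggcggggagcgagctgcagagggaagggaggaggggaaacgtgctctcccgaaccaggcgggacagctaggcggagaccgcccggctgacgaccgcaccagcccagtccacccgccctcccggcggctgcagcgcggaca
Vangl2: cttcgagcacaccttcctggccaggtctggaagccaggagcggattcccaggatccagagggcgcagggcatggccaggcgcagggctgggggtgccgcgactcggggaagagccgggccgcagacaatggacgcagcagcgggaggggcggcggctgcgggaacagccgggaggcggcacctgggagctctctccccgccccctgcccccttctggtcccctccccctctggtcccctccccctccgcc

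The Prickle2-204 window held the palindromic pair from position −184 relative to the start, and 0.39% of all 32851 mouse promoter windows held one. The Prickle2-201 and Vangl2 windows held no TAAT, a motif found in 58% of all windows when both strands are read. The Vangl2 window was 71.3% GC and the Prickle2-204 window 46.3%, beside a median of 52.7% over all windows. TAAT was also present in the windows of Prickle1, Prickle3 and Ptk7 and in the other 2 windows of Prickle2. Neither TAATTA, which 5.29% of all windows held, nor GTCACGC, a paired-domain core in 2.09% of them, was found in any of the 12. A match of letters is a description of the window and not a binding site.

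VANGL1 and VANGL2 are four-pass membrane proteins at the centre of the module. Vangl1 (ENSMUSG00000027860, GRCm38 chromosome 3, 102153583 to 102204693) had 12.3, 11.9 and 10.1 CPM in the Pax7WT libraries and 8.05, 8.42 and 8.94 CPM in the Pax7KR libraries. Every Pax7KR library was below every Pax7WT library. The means were 11.4 ± 1.19 and 8.47 ± 0.447 CPM (SD, n = 3 each), and the log2 fold change was −0.43 ± 0.14 SE, with an unadjusted p of 0.00887 and an adjusted p of 0.992 in edgeR's quasi-likelihood test with Benjamini-Hochberg adjustment. Vangl1 was the only core gene of 10 with an unadjusted p under 0.05, beside 4.68% of all tested genes (2.43% lower and 2.26% higher in Pax7KR), and 0% of all tested genes passed the adjusted cut-off of 0.1. Its unadjusted p stayed under 0.05 in each of the 18 alternative analyses, between 0.00282 and 0.0389, and the smallest adjusted p among them was 0.359. Of the other core genes, Vangl2 had an unadjusted p under 0.05 in the 2 alternatives with a length offset. With edgeR on 5 libraries, Fzd7 (0.0276), Celsr2 (0.0337) and Prickle3 (0.0452) did so without Pax7WT replicate 3 and Ptk7 (0.0347) without Pax7WT replicate 1, and 0 were called.

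Vangl2 (ENSMUSG00000026556, chromosome 1, 172000960 to 172028444) had 20.7, 19.5 and 18.5 CPM in Pax7WT and 18.2, 16.7 and 18.2 CPM in Pax7KR. The groups were separate by a narrow margin, with the lowest control just above the highest mutant library. The log2 fold change was −0.14 ± 0.10 SE (unadjusted p = 0.183, adjusted p = 0.992, edgeR's quasi-likelihood test). Vangl2 is also in a heatmap of these same libraries that the study describes as showing differentially expressed genes. Its direction here is therefore not independent evidence. The study loaded its transcript estimates with tximport and tested them with DESeq2, whereas the main fit here used edgeR. In these 3 against 3 comparisons, groups that do not overlap give the smallest p an exact permutation test allows, which is 0.1 (two-sided). Of the 10 core genes, 4 had groups that did not overlap, 3 of them lower in Pax7KR (Vangl1, Vangl2 and Prickle3) and 1 higher (Prickle1), beside 10.3% of all tested genes, 5.19% lower and 5.14% higher.

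**Figure D1:**
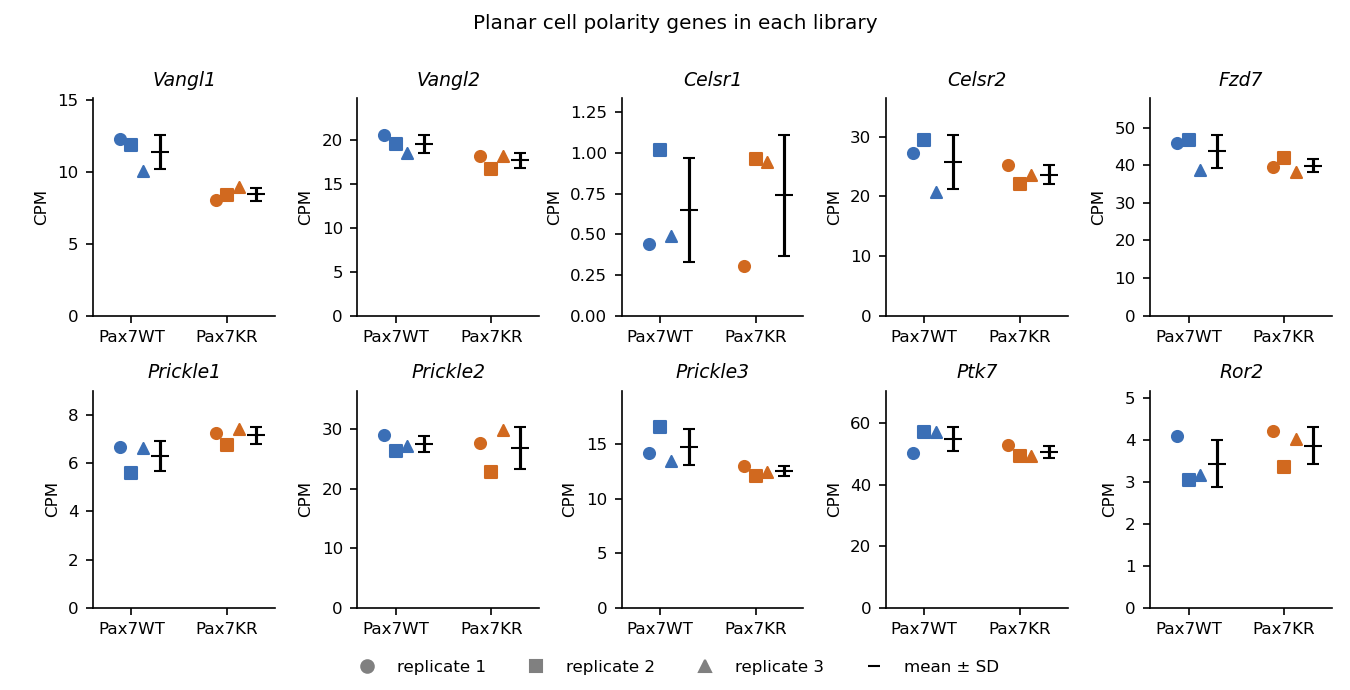
CPM of each core gene (y axis, from 0, a separate scale for each gene) in the 3 Pax7WT and 3 Pax7KR libraries, with a point for each library and black marks for the mean ± SD. Vangl1 is at 8.05 to 8.94 CPM in Pax7KR and 10.1 to 12.3 in Pax7WT, and for 6 of the 10 genes the groups overlap.

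The estimates for both Vangl genes depended on how their reads were divided among transcripts. Vangl2-201, the full-length coding transcript of 5698 bases, held 81.4% to 99.6% of Vangl2 reads. It had 19.0, 17.6 and 15.1 RPM (reads-per-million of the library, scaled as CPM) in Pax7WT and 16.4, 14.99 and 18.1 in Pax7KR, so that the groups overlapped for this transcript alone. The short Vangl2-206, of 704 bases, held 1.07, 0.353 and 0.165 RPM in Pax7WT and 0.186, 0.113 and 0.0817 in Pax7KR. Few reads on a short transcript weigh heavily once values are set per length, as in TPM (transcripts-per-million), a level that corrects for length. After Vangl2-201, the largest share of Vangl2 TPM was on a different transcript in each Pax7WT library. It was Vangl2-206 in replicate 1 (36.2%), Vangl2-205 in replicate 2 (25.0%) and Vangl2-203 in replicate 3 (27.4%). In Pax7KR, none of these transcripts held more than 18.9%. The average length of Vangl2 transcripts, weighted by TPM, was 3439 bases in Pax7WT and 4507 bases in Pax7KR. When this length entered the fit as an offset, the log2 fold change of Vangl2 became −0.52 in both edgeR (unadjusted p = 0.00232, adjusted p = 0.764) and DESeq2 (unadjusted p = 0.00069, adjusted p = 0.15). For Vangl1, the average length was 2176, 2639 and 2306 bases in the Pax7WT libraries and 2438, 2375 and 3649 in the Pax7KR libraries. The means of 2374 and 2821 bases thus differed mainly through Pax7KR replicate 3. With the offset, the log2 fold change of Vangl1 became −0.65 in both tools (adjusted p = 0.961 in edgeR and 0.359 in DESeq2). With DESeq2, 0.175% of all tested genes were called without the offset and 0.262% with it. No call was made for either gene under the offset.

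For Vangl1, the coding transcripts Vangl1-202, of 3207 bases, and Vangl1-201, of 6531 bases, held 47.7% to 68.7% and 26.3% to 43.7% of the reads. Vangl1-202 had 6.63, 8.19 and 4.82 RPM in Pax7WT and 4.80, 5.18 and 4.87 in Pax7KR, and Vangl1-201 had 3.47, 3.13 and 4.36 against 2.50, 2.60 and 3.91. Neither transcript separated the genotypes, although their gene did. The retained-intron transcript Vangl1-204, of 617 bases, held 5.0% to 9.0% of the reads in Pax7WT and 0 to 7.6% in Pax7KR. The ratio of Vangl2 to Vangl1 in TPM was 1.05, 1.34 and 1.18 in Pax7WT and 1.27, 1.19 and 1.43 in Pax7KR. Vangl2 was thus above Vangl1 in every library, by a margin that overlapped between genotypes.

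The CELSR proteins link neighbouring cells through their cadherin repeats. Celsr2 (ENSMUSG00000068740, chromosome 3, 108390851 to 108415552) had 27.2, 29.5 and 20.8 CPM in Pax7WT and 25.3, 22.0 and 23.5 CPM in Pax7KR. The Pax7KR libraries all lay within the range of the controls (log2 fold change −0.13 ± 0.13 SE, 95% confidence interval −0.40 to 0.14). Celsr1 (ENSMUSG00000016028, chromosome 15, 85898929 to 86033777) was near the detection limit, with 0.441, 1.02 and 0.487 CPM in Pax7WT and 0.306, 0.963 and 0.946 in Pax7KR. These values rest on 7 to 23 reads per library, and the 95% confidence interval of its log2 fold change, −1.08 to 1.49, spans more than 2-fold in either direction. With the length offset, the log2 fold change of 0.21 became 0.87 in edgeR and 0.99 in DESeq2, and neither was called. Celsr3, the remaining family member, had at most 1 read in any library and was not tested. Celsr2 was therefore the main CELSR transcript of these cells, with 5.91 to 201 times the TPM of Celsr1 across the libraries. The lowest ratio was in Pax7KR replicate 3. There, 2.61 estimated reads on the 377-base retained-intron Celsr1-204 made up 88.8% of Celsr1 TPM.

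FZD7 is the Frizzled receptor through which WNT7A acts on satellite cells. Fzd7 (ENSMUSG00000041075, chromosome 1, 59482424 to 59486955) had 45.9, 46.6 and 38.6 CPM in Pax7WT and 39.5, 41.8 and 38.3 CPM in Pax7KR. A single Pax7WT library lay among the Pax7KR libraries, and the log2 fold change was −0.13 ± 0.09 SE (95% confidence interval −0.32 to 0.06). The other 9 Frizzled genes were all tested and 0 were called, and 3 had lower and 6 higher estimates in Pax7KR. Fzd4, a receptor best known for Norrin and Wnt signalling in vessels, was the most abundant Frizzled gene, at 73.3 to 123 TPM, beside 15.2 to 18.1 TPM for Fzd7. Fzd1 and Fzd8, at 11.9 to 14.9 and 6.59 to 19.0 TPM, were of the same order as Fzd7, and the range of Fzd8 included that of Fzd7. The 3 Frizzled genes with the smallest unadjusted p were Fzd9 (log2 fold change −0.69 ± 0.37 SE), Fzd1 (−0.17 ± 0.09 SE) and Fzd4 (0.26 ± 0.15 SE), and of these only the groups of Fzd1 were separate.

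PRICKLE proteins are cytoplasmic partners of VANGL. Prickle1 (ENSMUSG00000036158, chromosome 15, 93499114 to 93595891) had 6.65, 5.59 and 6.63 CPM in Pax7WT and 7.26, 6.74 and 7.42 CPM in Pax7KR. All Pax7KR libraries were above all Pax7WT libraries, and the log2 fold change was 0.18 ± 0.17 SE, with a 95% confidence interval of −0.19 to 0.55. Prickle2 (ENSMUSG00000030020, chromosome 6, 92370908 to 92706155) had 29.0, 26.4 and 27.2 CPM in Pax7WT and 27.8, 22.9 and 29.9 CPM in Pax7KR. This was the smallest difference among the core genes (log2 fold change −0.04 ± 0.11 SE, 95% confidence interval −0.27 to 0.19), and the Pax7KR libraries spread more widely than the controls. The ratio of Prickle2 to Prickle1 in TPM was 2.61, 2.85 and 2.27 in Pax7WT and 2.17, 2.04 and 2.38 in Pax7KR, so that Prickle2 was the more abundant in every library.

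Prickle3 (ENSMUSG00000031145, chromosome X, 7657260 to 7668186) had 14.2, 16.6 and 13.4 CPM in Pax7WT and 13.0, 12.1 and 12.5 CPM in Pax7KR. The groups were separate, with a log2 fold change of −0.23 ± 0.12 SE (unadjusted p = 0.0768, adjusted p = 0.992, edgeR's quasi-likelihood test), and with the length offset in edgeR it was −0.09. Only 23.1% to 35.9% of its reads were assigned to protein-coding transcripts. The retained-intron transcript Prickle3-202, of 2487 bases, held 39.4% to 54.1% of the reads, and Prickle3-204, a second such transcript of 1708 bases, held 10.5% to 26.1%. Prickle3-204 had 3.71, 4.16 and 2.95 RPM in Pax7WT and 1.37, 2.55 and 2.50 in Pax7KR. It was separate between the genotypes, whereas the coding Prickle3-203, with 2.95, 2.93 and 3.87 against 2.70, 1.03 and 3.55, was not. The coding Prickle3-201 had a higher mean in Pax7KR, with 0.343, 1.60 and 0 RPM in Pax7WT and 1.67, 2.18 and 0.931 in Pax7KR, and overlapped. The retained-intron Prickle3-205, at most 4.69% of the reads, was separate and higher in Pax7KR, with 0.0684, 0.137 and 0 against 0.218, 0.289 and 0.586 RPM. Prickle3-205 rests on 0 to 12.4 estimated reads per library and Prickle3-201 on 0 to 52.0. The estimates of the Prickle3 transcripts thus differed in direction, on a division of reads that is uncertain and was not tested. The share of all transcripts with separate groups was not measured. Prickle3 also overlaps Plp2 on the opposite strand over 246 exonic bases, 5.02% of its exonic length. It shared 6.28% of its 31-base stretches with other genes, so some of its reads could belong to other genes, while none of the other members shared more than 1.45%. These stretches were matched on either strand although the library kit was directional, and how many reads are affected was not tested. The sum of 4 Y-linked genes was 313 to 355 CPM in Pax7WT and 299, 131 and 346 in Pax7KR, so Pax7KR replicate 2 stood apart. All 4 of these genes and the X-linked Xist had lower estimates in Pax7KR. Without Pax7KR replicate 2, the log2 fold change of the X-linked Prickle3 was −0.21.

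**Figure D2:**
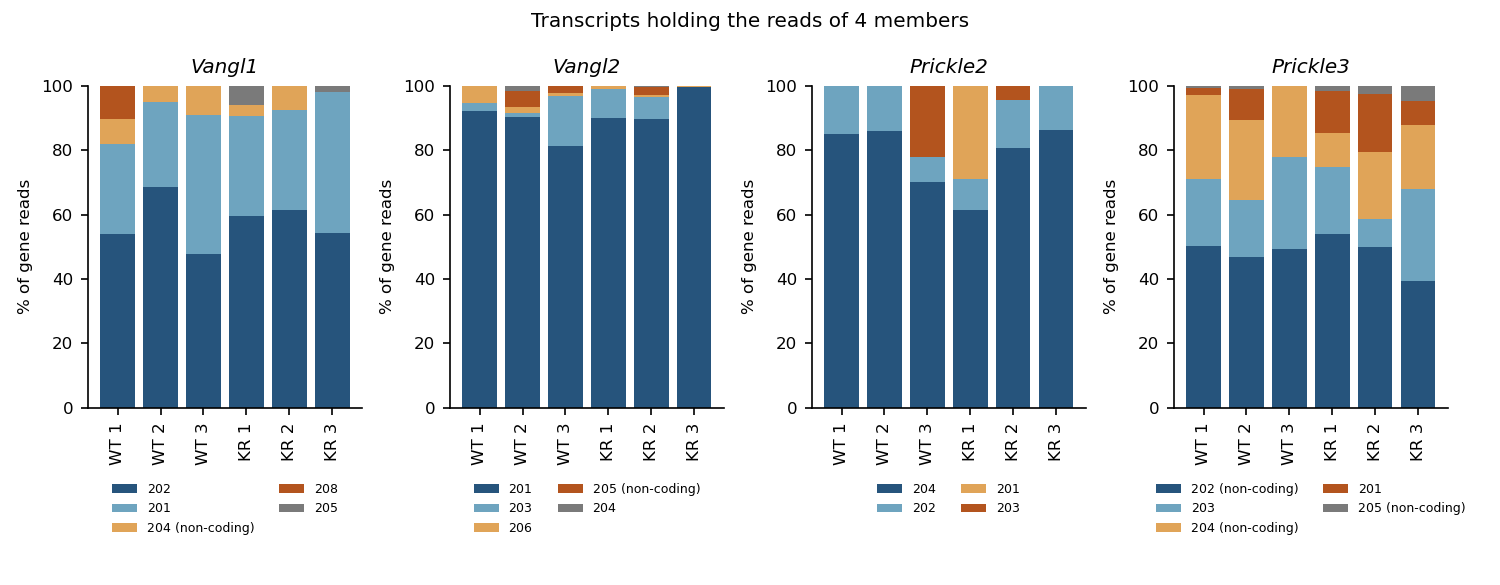
Share of a gene's reads (y axis, percent) held by each transcript of 4 core genes in each library, as stacked bars that start at 0, with transcripts not annotated as protein-coding marked non-coding. Prickle2-204 takes 61.5% to 86.2% of Prickle2 reads, and the retained-intron transcripts take most of the reads of Prickle3.

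The start sites of Prickle2 were used unequally in both genotypes. Prickle2-204, whose upstream sequence carries the palindromic pair, held 85.0%, 86.1% and 70.1% of Prickle2 reads in Pax7WT and 61.5%, 80.6% and 86.2% in Pax7KR. The shares overlapped, and this transcript had 24.6, 22.7 and 19.1 RPM in Pax7WT and 17.1, 18.5 and 25.8 RPM in Pax7KR. Prickle2-202, which starts 85974 bases downstream, held 7.86% to 15.0%. Prickle2-201, at the GC-rich upstream start, was assigned reads in Pax7KR replicate 1 alone, and Prickle2-203 in 2 libraries. These transcripts share most of their sequence, and the division of reads among them is uncertain. Prickle1 had the same feature, with all 99 reads of Pax7WT replicate 2 on Prickle1-202 and 86.1% to 100% on Prickle1-201 in the other libraries, and Ror2 had 51.7% of its reads on Ror2-202 in Pax7KR replicate 3 and none on it elsewhere.

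PTK7 is a catalytically inactive receptor tyrosine kinase, and ROR2 is a receptor for WNT5A. Ptk7 (ENSMUSG00000023972, chromosome 17, 46564471 to 46629504) had 50.3, 57.1 and 57.3 CPM in Pax7WT and 53.0, 49.5 and 49.5 CPM in Pax7KR. Its groups overlapped through the first library of each genotype (log2 fold change −0.12 ± 0.08 SE, 95% confidence interval −0.28 to 0.05). Ror2 (ENSMUSG00000021464, chromosome 13, 53109312 to 53286124) had 4.08, 3.05 and 3.17 CPM in Pax7WT and 4.20, 3.35 and 4.02 CPM in Pax7KR. Its libraries were interleaved (log2 fold change 0.16 ± 0.24 SE), and the length offset turned the estimate to −0.04. Ror1, the paralogue of Ror2, was the far more abundant ROR receptor, at 49.8 to 59.96 TPM beside 1.35 to 2.56 TPM for Ror2, and it had 168 to 207 CPM with a log2 fold change of −0.10 ± 0.07 SE.

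**Figure D3:**
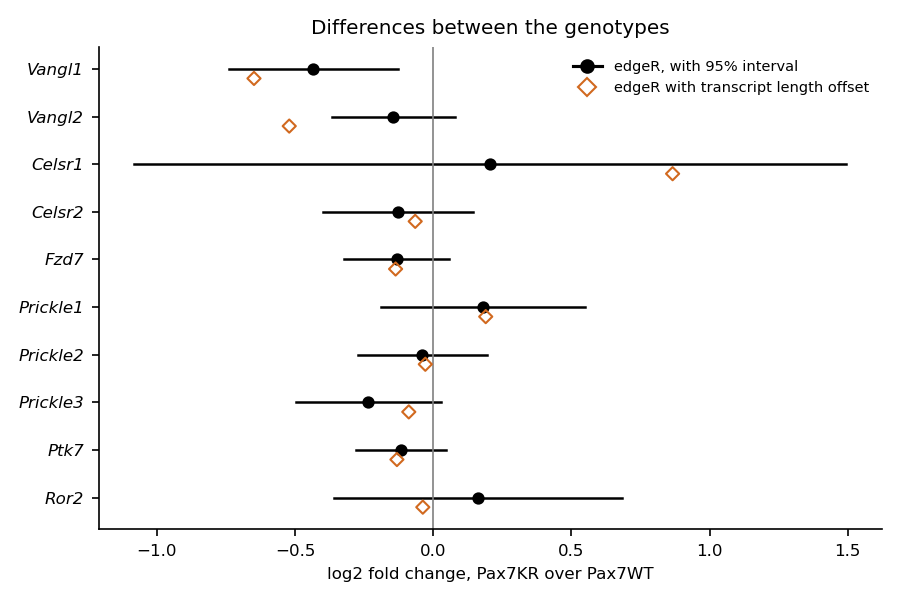
Log2 fold change of each core gene in Pax7KR over Pax7WT (x axis), with points for the estimate of edgeR and lines for its 95% confidence interval, and open diamonds for the estimate with the transcript length offset. The interval of Vangl1, −0.74 to −0.13, lies below 0, and those of the other 9 genes include 0.

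Set per length, the core genes spanned a wide range of levels. Ptk7 was highest at a mean of 22.4 ± 1.32 TPM over the 6 libraries (SD), followed by Fzd7 at 16.7 ± 1.32 and Prickle3 at 12.0 ± 1.13. Their ranges, 20.9 to 24.1, 15.2 to 18.1 and 10.7 to 13.9 TPM, did not overlap. The Prickle3 level includes retained-intron transcripts, with 27.8% to 45.6% of its TPM on Prickle3-202 and 13.1% to 32.4% on Prickle3-204. The coding Prickle3-203 held 7.14% to 27.6% and Prickle3-201 0 to 15.7%, so this place is not that of its coding transcripts alone. Vangl2, Celsr2, Prickle2 and Vangl1 followed at 7.89, 7.78, 6.65 and 6.48 TPM. The ranges of these 4 genes overlapped, and their order changed when CPM was divided by the length of the main transcript, although Vangl2 was above Vangl1 by both measures. Prickle1 had 2.82 ± 0.338 TPM and Ror2 had 1.79 ± 0.448 TPM, with ranges that overlapped although Prickle1 was above Ror2 in 6 of 6 libraries, and Celsr1 was lowest at 0.326 ± 0.418 TPM. Among the tested genes, Ptk7 stood at the 63.5 percentile of mean TPM and Celsr1 at the 9.74 percentile, so none of the 10 was among the abundant transcripts of these cells.

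**Figure D4:**
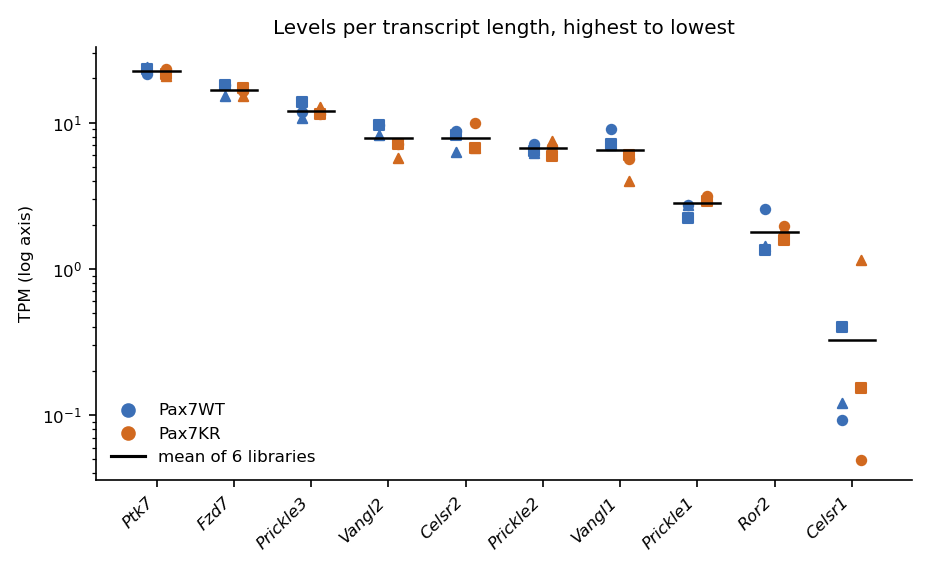
TPM of the 10 core genes (y axis, log scale) in each library, ordered from the highest mean to the lowest, with a point for each library, coloured by genotype, and a line for the mean of 6. Ptk7, Fzd7 and Prickle3, the last with its retained-intron transcripts included, form 3 separate steps. The next 4 genes overlap between 6.48 and 7.89 TPM on average, and Celsr1 is below the rest in every library.

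By genotype, the TPM of Vangl2 was 9.55, 9.59 and 8.25 in Pax7WT and 7.12, 7.11 and 5.74 in Pax7KR, and that of Vangl1 was 9.10, 7.18 and 7.01 against 5.61, 5.99 and 4.01. Both separated the genotypes by more than in CPM, with the lengths of the assigned transcripts entering these values as described above. The TPM of Prickle3 was 11.8, 13.9 and 10.7 in Pax7WT and 11.5, 11.5 and 12.7 in Pax7KR, so that its separation in CPM was lost per length. Fzd7 has a single annotated transcript and is free of this dependence, with 18.1, 18.1 and 15.2 TPM in Pax7WT and 16.4, 17.2 and 15.3 in Pax7KR.

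The spread between libraries differed between the members, and whether it differed between the genotypes was not tested. Between the 3 Pax7WT libraries, the coefficient of variation of CPM was 5.46% for Vangl2, 10.4% for Vangl1 and 17.6% for Celsr2, beside 4.83%, 6.31% and 4.21% from the counting of reads alone. Between the 3 Pax7KR libraries it was 4.92%, 5.28% and 6.97%, beside 4.998%, 7.23% and 4.33% from counting. The coefficient was larger in Pax7WT for every core gene except Prickle2 (13.3% in Pax7KR, beside 4.78% in Pax7WT) and Celsr1. The share of all genes with a larger coefficient in Pax7WT was not measured. Across genes, the distance between 2 libraries was taken as a mean chi-square per gene, which also grows with depth. It was 12.8, 21.1 and 25.1 between Pax7WT libraries and 10.9, 11.5 and 14.4 between Pax7KR libraries. Each coefficient rests on 3 libraries. For Celsr1 it was 49.3% in Pax7WT and 50.7% in Pax7KR, beside 27.4% and 24.5% from counting.

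The other genes of the pathway were taken from 4 lists of 44 genes, of which 41 were tested, 0 were called, and 18 had lower and 23 higher estimates in Pax7KR (median log2 fold change 0.02). Of the 41, 3 had an unadjusted p under 0.05, beside 4.68% of all tested genes, and 7 had groups that did not overlap, beside 10.3% of all tested genes. Among the paralogues and Dishevelled genes, 7 of 8 were tested. Ankrd6, which encodes the Dishevelled partner Diversin, had 7.98, 9.03 and 6.48 CPM in Pax7WT and 5.47, 6.79 and 5.11 in Pax7KR (log2 fold change −0.43 ± 0.19 SE, unadjusted p = 0.042 in edgeR's quasi-likelihood test). Dvl3, a Dishevelled adaptor, was separate and lower in Pax7KR (−0.14 ± 0.07 SE), and Fzd6 had 0.29 ± 0.30 SE. Dvl1 was the most abundant of the 3 Dishevelled genes at 81.2 to 98.9 TPM.

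Of 10 Wnt ligands, co-receptors and glypicans, 8 were tested and none reached an unadjusted p of 0.05, with Wnt5a, Ror1 and Gpc4 having the smallest values. Wnt7a had no read in any of the 6 libraries, which in the smallest library allows a level of up to 0.168 CPM (3 reads, counting error only). Wnt11 had at most 5 reads. Wnt5a, the ligand of ROR2, had 1.07, 0.113 and 0.682 CPM in Pax7WT and 1.75, 0.67 and 1.56 in Pax7KR, from 2 to 40 reads (log2 fold change 1.04 ± 0.62 SE). Gpc4, a glypican that binds Wnt ligands, had −0.05 ± 0.07 SE.

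Of 16 cytoplasmic effectors, all were tested, 9 had lower and 7 higher estimates, and none reached an unadjusted p of 0.05. Invs, which encodes inversin, had a log2 fold change of −0.14 ± 0.08 SE and Fuz had 0.18 ± 0.11 SE. Of 10 genes for the trafficking, phosphorylation and turnover of core proteins, all were tested, with 4 lower and 6 higher estimates. Dact1, a Dishevelled antagonist, had 8.56, 7.17 and 6.68 CPM in Pax7WT and 8.83, 11.9 and 10.9 in Pax7KR, the lowest unadjusted p among these lists (log2 fold change 0.50 ± 0.17 SE, unadjusted p = 0.0106, adjusted p = 0.992, edgeR's quasi-likelihood test). Gipc1, an adaptor that moves VANGL2-containing vesicles, had 25.1, 27.5 and 24.3 CPM against 23.0, 22.0 and 21.0 (−0.22 ± 0.10 SE, unadjusted p = 0.0405 in the same test). Arfrp1, a small GTPase of Golgi export, was separate and higher at 0.09 ± 0.07 SE.

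The Par, Crumbs and Scribble genes, which set apical-basal polarity, gave 0 calls among 16 tested of 20, with 9 lower and 7 higher estimates (median log2 fold change −0.01). Llgl2, a lethal giant larvae homologue, had 1.36, 0.96 and 0.975 CPM in Pax7WT and 1.49, 2.72 and 2.41 in Pax7KR, from 17 to 65 reads (log2 fold change 0.99 ± 0.36 SE, unadjusted p = 0.017 in edgeR's quasi-likelihood test). Dlg5 had 0.09 ± 0.06 SE and Pard6a had 0.34 ± 0.24 SE. The median absolute log2 fold change was 0.15 for the 10 core genes, 0.07 for the 41 other pathway genes, 0.06 for the Par, Crumbs and Scribble genes and 0.11 for all tested genes. The sets were not matched for level, and fold changes of genes with few reads, such as Celsr1, vary more from counting alone.

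**Figure D5:**
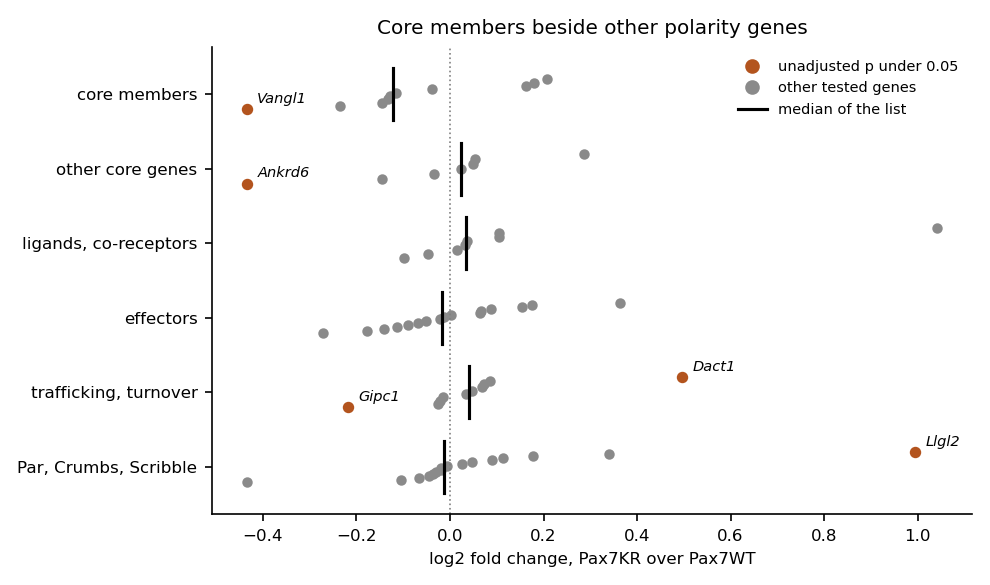
Log2 fold change in Pax7KR over Pax7WT (x axis) of the genes of each list (rows), with a point for each tested gene, coloured where the unadjusted p is under 0.05, and a black line for the median of the list. The core genes lie between −0.43 and 0.21, beside a range of −0.43 to 1.04 over the 41 other pathway genes.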

How the data were processed

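Satellite cell RNA of 3 Pax7WT and 3 Pax7KR samples was sequenced as paired reads from a directional library kit. The authors quantified transcripts with salmon 1.3.0 on GENCODE transcripts of GRCm38 with genomic decoys, and deposited estimated counts per transcript, not normalized, with TPM values and effective lengths. A deposited table of the authors' own comparison (fold changes and p-values, from DESeq2 1.28.1 per the submitters' processing notes) was not used.

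Estimated counts were summed per gene through a GENCODE release older than that of the authors, for the same build, which matched 139791 of 140992 transcripts by identifier (the remaining 1201 held 0.592% to 0.634% of the reads of a library), and rounded. A gene was tested if at least 2 libraries held at least 5 of its reads (17152 of 54115 genes), on genotype alone, with edgeR 4.0.16 (TMM, quasi-likelihood test, robust shrinkage, R 4.3.3), with a Benjamini-Hochberg cut-off of 0.1. CPM uses TMM library sizes, and SE comes from the fold change and its F statistic. TPM is the authors' deposited value summed per gene. DESeq2 1.42.0 and limma-voom (limma 3.58.1) were alternatives. On simulated counts of 16595 genes for this comparison, edgeR called 166 of the 200 that had been given a log2 fold change of 1. It also called 26 genes that had been given no change. On the same counts, DESeq2 called 176 of the 200 and 52 genes with no change, and limma-voom 158 and 26. Changes as small as the core gene estimates were not simulated, so the power to call those is not known. Library depth was 17822367 to 27908054 reads. Intervals and tests rest on 3 samples per group.

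The core genes and lists were chosen with earlier results of these data known. Genes named are all 10 core genes, Pax7, Wnt7a and the 3 genes of each other polarity list with the smallest unadjusted p, of which 1 is not reported here. Dvl1, Fzd8, Celsr3, Wnt11, Xist and the sex-linked sum were named after their values were seen. Sequence sharing was measured over stretches of 31 bases. Promoters are RefSeq windows on GRCm38.p6. Replicate numbers were not taken as pairs, since same-numbered samples did not deviate together, although 3 samples per group cannot exclude pairing.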

Additional observations from a re-analysis of the deposited data

How the results depend on the processing

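No core gene and none of the other 44 pathway genes was called under any of the 18 alternatives. Over all genes, the count of calls was 0 with edgeR (803 had an unadjusted p under 0.05), and it became 157 without a filter, 30 with DESeq2, 45 with DESeq2 and the length offset and 13 with the replicate number as a block. Leaving out single libraries gave 1 to 32 calls, the most without Pax7KR replicate 3. The cause was not tested. Samples with the same replicate number had correlations of −0.06 to 0.05 in their deviations and were not treated as pairs. With 3 samples per group, such correlations cannot exclude pairing. The replicate block called 0 core genes. Of 179 fold changes of core genes under the alternatives, 173 kept their direction. Celsr1 turned to −0.017, −0.037 and −0.0046 without Pax7WT replicate 1, Pax7KR replicate 2 and Pax7KR replicate 3 (log2, range −0.037 to 0.67 over single libraries left out). Prickle2 turned to 0.064 without Pax7KR replicate 2 (range −0.12 to 0.064), and Ror2 to −0.038 with the length offset in edgeR and DESeq2. With single libraries left out, Vangl1 ran from −0.52 to −0.38 and Celsr2 from −0.26 to −0.025. Celsr1 gave no value under a filter of 10 reads in every library. By share of TPM in place of reads, the main transcript held 48.7% of Vangl1, 66.7% of Vangl2, 44.7% of Celsr2, 39.8% of Prickle3 and 96.1% of Ptk7. Division of CPM by the length of the main transcript, chosen after seeing the data, changed the ranks of Prickle2, Vangl2, Vangl1 and Celsr2 to 4, 5, 6 and 7. Celsr1 rests on 7 to 23 reads in a library.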
